A study of Mus musculus with 2 samples.

Results

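The genes described here are 9 members of the coagulation and fibrinolysis systems, namely F3, F7, F10, F13a1, Plau, Plaur, Plat, Thbd and Vwf. They were taken by symbol from the 27998 genes of the deposited tables, and each symbol matched 1 row. The tables hold single-cell RNA sequencing of whole lung from 2 male C57Bl/6J mice aged 3 months, 1 labelled control and 1 labelled fibrosis. Mice received 100 µg of TiO2 or of crocidolite asbestos, a mineral fibre that scars the lung, into the trachea, and lungs were taken after 14 days. The labels give both particles for each library without saying which mouse got which, and the names control and fibrosis are therefore used throughout. The lungs had been perfused through the right ventricle, dissociated with dispase plus DNase I and depleted of erythrocytes by lysis. Platelet or megakaryocyte-like cells, which also carry Vwf and F13a1, numbered 3 in control and 0 in fibrosis. With 1 mouse per group there is no replicate, no test between groups and no p-value. Each 95% interval below covers counting error only.

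Coagulation starts when tissue factor, the membrane protein encoded by F3, meets factor VII (F7), and the pair activates factor X (F10), which turns prothrombin into thrombin. Thrombin cuts fibrinogen into fibrin, factor XIII (its catalytic A subunit is encoded by F13a1) crosslinks the fibrin, and von Willebrand factor (Vwf) tethers platelets to the vessel wall. Thrombomodulin (Thbd) on endothelium redirects thrombin towards activating protein C, an anticoagulant. Fibrin is removed by plasmin, which urokinase (Plau), bound to its receptor (Plaur), and tissue plasminogen activator (Plat) release from plasminogen. Fibrin persists in the airspaces of injured and scarring lungs.

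F7 and F10 are neighbours in the genome, and their upstream windows are shown because these genes shared the alveolar macrophage-like class and differed in monocytes. On GRCm38 in GENCODE M21, F7 lies on the plus strand at chr8:13026034-13035809 and F10 on the same strand at chr8:13037308-13056676, with 1498 bases between them. The 250 bases before each RefSeq start (GRCm38.p6) span chr8:13025784-13026033 for F7 and chr8:13037058-13037307 for F10. Capitals mark GAGGAA, the core of PU.1 sites, and TGACCT, a nuclear receptor half-site, on either strand, with no overlap between them.
F7: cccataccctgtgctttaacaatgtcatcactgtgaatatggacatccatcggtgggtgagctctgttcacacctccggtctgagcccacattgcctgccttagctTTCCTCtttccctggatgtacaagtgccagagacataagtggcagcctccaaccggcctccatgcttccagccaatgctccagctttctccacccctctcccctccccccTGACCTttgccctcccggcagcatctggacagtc
F10: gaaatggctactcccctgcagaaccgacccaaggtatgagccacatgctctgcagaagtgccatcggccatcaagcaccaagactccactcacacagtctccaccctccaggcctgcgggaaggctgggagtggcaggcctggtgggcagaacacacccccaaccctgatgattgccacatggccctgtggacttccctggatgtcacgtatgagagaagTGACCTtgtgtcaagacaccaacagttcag
TGACCT was found once in each window, 34 bases before the start in F7 and 30 bases before it in F10, and 14.0% of 32851 promoter windows of this length hold it. GAGGAA was found once in the F7 window, 144 bases before the start as its reverse complement, and not in the F10 window, while 23.3% of all windows hold it. GGGCGG, an Sp1-type box that 32.7% of windows hold, and TGANTCA, an AP-1-type site that 6.75% hold, were found on neither strand of these windows. The F3 window had 3 of the former and 2 of the latter, and the Plaur window 3 and 1. A match is a description of the letters and not a bound site.

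The other members lie at chr3:121723537-121735048 (F3, plus strand), chr13:36867178-37050244 (F13a1, minus), chr14:20836660-20843385 (Plau, plus), chr7:24462484-24475968 (Plaur, plus), chr8:22757727-22782844 (Plat, plus), chr2:148404466-148408188 (Thbd, minus) and chr6:125546774-125686679 (Vwf, plus). F13a1 is overlapped on the other strand by the antisense genes Gm49144 and Gm30489. Whether counting used strand is not given in the sources used here, so reads of these genes could not be told apart.

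The control library held 8280 cells and 36632591 unique molecular identifiers (UMIs), and the fibrosis library 7173 cells and 38090308 UMIs. Filtering left 7510 cells in control (median 3691 UMIs) and 6559 in fibrosis (median 4238 UMIs), and 12867 of these 14069 cells (91.5%) entered a marker-defined class. Class names rest on transcripts of marker genes that exclude all members and are written "-like". The 12 classes with at least 50 cells in each library were compared, and 19 classes with at least 50 cells over both were described. The libraries shared 89 barcodes. Levels are given as CPM, the UMIs of a gene per 1000000 UMIs of its class and library. UMIs tag transcript 3′ ends, so CPM are not per length and levels are compared within a gene only. B-like cells served as the background class.

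Over whole libraries, F3, F7, Plau, Plat and Vwf had higher CPM in fibrosis and F10, F13a1, Plaur and Thbd lower. F13a1, the fibrin crosslinker, was at 189.7 CPM in control and 54.6 CPM in fibrosis. F10 was at 83.7 and 40.8 CPM, Plaur at 61.7 and 38.1, and Thbd at 49.6 and 38.8. F7 was at 32.2 and 54.8 CPM, F3 at 8.80 and 13.1, Plat at 5.15 and 7.51, Vwf at 32.6 and 39.7, and Plau at 0.833 and 2.38. These totals depend on the makeup of the cells as well as on levels within classes, and the makeup differed between the libraries. Classical monocyte-like cells numbered 1517 (20.2% of kept cells) in control and 358 (5.46%) in fibrosis, and alveolar macrophage-like cells 691 (9.20%) and 1039 (15.8%). Endothelial-like cells numbered 306 (4.07%) and 194 (2.96%). The part of makeup in each total was not tested. Later comparisons of CPM are therefore made within a class, and shares or sums over all kept cells are named as such.

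**Figure D1:**
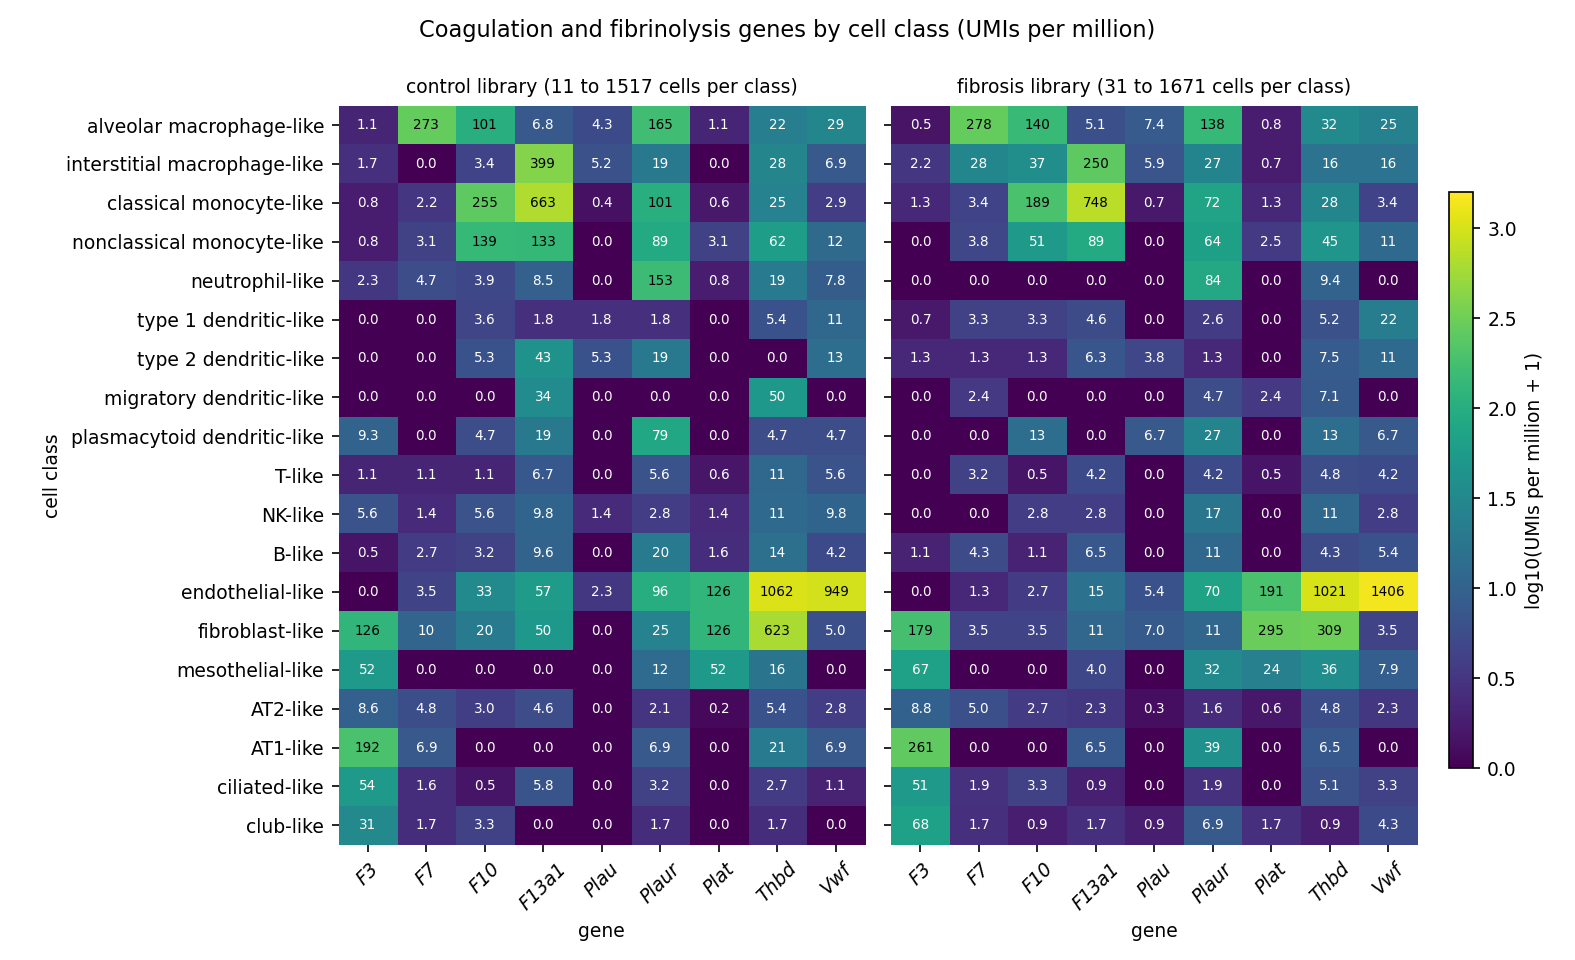
Heat maps of CPM of the 9 genes (columns) in 19 cell classes (rows) in the control library (left) and the fibrosis library (right), with colour on a log10(CPM + 1) scale and the CPM printed in each field. F7 was highest in alveolar macrophage-like cells (273 and 278 CPM) and Vwf in endothelial-like cells (949 and 1406 CPM), while Plaur was spread over several myeloid classes and endothelial-like cells.

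F3, the trigger of coagulation, was found in epithelial, fibroblast-like and mesothelial-like cells and was close to absent from leukocytes and endothelium. AT1-like cells, the flat cells of the gas exchange surface, held 28 F3 UMIs in control (192 CPM, 128 to 277) and 40 in fibrosis (261 CPM, 187 to 356). Fibroblast-like cells held 25 UMIs (126 CPM) and 51 UMIs (179 CPM), and mesothelial-like cells, which line the lung surface, 13 UMIs (52.0 CPM) and 17 UMIs (67.3 CPM). The intervals of the log2 ratio between libraries included no change in all 3 of these classes, which have under 50 cells in at least 1 library. In fibroblast-like cells the ratio turned from 0.51 to -0.25 without the 8 control and 18 fibrosis cells that held at least 3 AT2 markers, the latter holding 30 of the 51 fibrosis UMIs.

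Among the compared classes, ciliated-like cells held 101 and 110 F3 UMIs, or 53.6 and 51.4 CPM in control and fibrosis, with a log2 ratio of -0.06 (-0.46 to 0.34). AT2-like cells, which make surfactant, held 52 and 89 UMIs, or 8.59 and 8.79 CPM. F3 was thus at nearly the same CPM in both libraries in the 2 epithelial classes that could be compared. At a mitochondrial maximum of 5% the log2 ratio in AT2-like cells moved from 0.03 to -0.50. Endothelial-like cells held no F3 UMI in 306 control and 194 fibrosis cells, which allows up to 3.49 and 4.01 CPM. B-like cells were at 0.531 and 1.08 CPM. Club-like cells, the secretory cells of the airway, were at 31.4 CPM (19 UMIs, 43 cells) and 67.7 CPM (79 UMIs, 80 cells), a log2 ratio of 1.11 (0.37 to 1.91). Of the 79 fibrosis UMIs, 35 came from 1 cell. Without the highest cell of each library the ratio was 0.71 (-0.19 to 1.69), and without the 11 control and 9 fibrosis cells that held at least 3 ciliated markers it was 0.24.

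F7, the ligand of tissue factor, was a transcript of alveolar macrophage-like cells, the resident phagocytes of the airspace, which held 92.3% of its UMIs in control and 91.0% in fibrosis. They held 962 UMIs in control (273 CPM, 256 to 291) and 1700 in fibrosis (278 CPM, 265 to 292). The log2 ratio was 0.03 (-0.09 to 0.14), so F7 did not differ beyond counting error in its main class. Relative to the gene's median ratio in the other compared classes with at least 20 UMIs, the ratio was -0.58. At least 1 F7 UMI was seen in 457 of 691 control cells (66.1%) and 732 of 1039 fibrosis cells (70.5%), against 0.566% and 1.15% of B-like cells. Median depth was 4882 and 5284 UMIs in the macrophages and 1829 and 2492 in the B-like cells. After thinning each cell to 1000 UMIs the shares were 21.0% and 21.2% of the macrophages and 0.227% and 0% of the B-like cells, 0 of 347 cells.

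Interstitial macrophage-like cells, the C1q-expressing macrophages of the lung tissue, differed from this pattern. They held no F7 UMI in 160 control cells, which allows up to 5.16 CPM, and 38 UMIs in 358 fibrosis cells (28.2 CPM, 19.97 to 38.7). With the control sum set to 3 counts over the class the ratio was 5.47-fold, a log2 value of 2.45, and the exact interval of the log2 ratio had a lower end of 2.08. The 38 UMIs lay in 22 cells, at most 4 in 1 cell. Alveolar macrophage markers also stood higher in this class in fibrosis. Their summed level over 10 genes was 236 CPM in control, with 1 gene at 0, and 633 CPM in fibrosis, with none at 0. In fibrosis 16 cells held at least 3 of these markers, and they held 8 of the 38 F7 UMIs. Without them F7 stood at 24.5 CPM, and with the control at its floor the log2 value was 2.20. F7 UMIs per 100 alveolar macrophage marker UMIs were 4.46 in the interstitial macrophage-like cells and 0.616 in the alveolar macrophage-like cells of the same library. The other classes were low. Fibroblast-like cells held 2 UMIs in control and 1 in fibrosis, and AT2-like cells were at 4.79 and 5.04 CPM beside 2.66 and 4.33 CPM in B-like cells.

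F10, the zymogen activated by tissue factor and factor VII, was shared by monocytes and alveolar macrophages, and the class holding most of it differed between the libraries. In control 72.6% of F10 UMIs lay in classical monocyte-like and 13.1% in alveolar macrophage-like cells. In fibrosis these shares were 20.2% and 61.7%. The numbers of these cells differed in the same directions, as given above, and the levels within the classes differed less.

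Classical monocyte-like cells held 1968 F10 UMIs in control (255 CPM, 244 to 267) and 281 in fibrosis (189 CPM, 167 to 212), a log2 ratio of -0.44 (-0.62 to -0.25). Alveolar macrophage-like cells held 356 UMIs (101 CPM, 91.0 to 112) and 857 UMIs (140 CPM, 131 to 150), a ratio of 0.47 (0.29 to 0.65). These classes thus differed in opposite directions beyond counting error, each by less than 2-fold. After thinning, 22.5% and 17.6% of the classical monocyte-like cells and 7.53% and 13.2% of the alveolar macrophage-like cells had an F10 UMI, in control and fibrosis. The thinned share in B-like cells was 0.227% and 0.288%, and their F10 level 3.19 and 1.08 CPM.

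In nonclassical monocyte-like cells, which patrol vessels, F10 was at 139 CPM in control (178 UMIs, 119 to 161) and 51.4 CPM in fibrosis (41 UMIs, 36.9 to 69.8). The log2 ratio of -1.43 (-1.96 to -0.93) passed 2-fold lower, as did 3.49% of all genes tested in the class. After thinning, 9.58% (6.65 to 13.3) of control and 5.04% (2.71 to 8.46) of fibrosis cells had an F10 UMI, with overlapping intervals. Nonclassical cells also carry many transcripts of the classical list, whose summed level was 9099 CPM in control and 7897 in fibrosis, with none of its 8 genes at 0. In the 70 control and 65 fibrosis cells with fewer than 3 classical markers, F10 was at 99.1 CPM (15 UMIs) and 24.5 CPM (4 UMIs), a ratio of -2.01. Of the nonclassical cells, 16.8% in control and 27.5% in fibrosis sat at the 3-marker minimum of their class.

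Interstitial macrophage-like cells held 2 F10 UMIs in control (3.44 CPM, 0.417 to 12.4) and 50 in fibrosis (37.1 CPM, 27.6 to 49.0), a ratio of 10.8-fold or 3.43 on the log2 scale (1.5 to 6.52). In the fibrosis library 23 cells had an F10 UMI and 1 cell held 14 of the 50. Without the highest cell of each library the ratio was 3.96, and without the cells with at least 3 alveolar macrophage markers, which held 5 of the 50 UMIs, it was 4.37 (1.82 to 9.71). Both F7 and F10 thus had higher CPM in this class in fibrosis, where 5.51% of all genes tested passed 2-fold higher. The shares of cells after thinning separated the libraries less clearly. An F10 UMI was then left in 1 of 160 control cells (0.625%) and 8 of 358 fibrosis cells (2.23%). An F7 UMI was left in no control cell and in 8 fibrosis cells (2.23%). For both genes the intervals of these shares overlapped between the libraries.

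Endothelial-like cells were at 32.5 CPM of F10 in control (28 UMIs) and 2.68 CPM in fibrosis (2 UMIs), a log2 ratio of -3.60 (-6.72 to -1.62). Without doublet removal the ratio was -1.27. Of the 28 control UMIs, 24 lay in the 22 cells that held at least 3 classical monocyte markers. Without these cells the level was 5.55 CPM (4 UMIs) in control and 1.37 CPM (1 UMI) in fibrosis, with an interval of the ratio from -7.64 to 1.32. The summed classical monocyte markers were at 1452 CPM in control and 1036 CPM in fibrosis, with none of the 8 genes at 0, and the summed neutrophil markers at 7959 and 859 CPM, with 0 and 1 of 10 genes at 0.

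F13a1, the crosslinking enzyme, was a transcript of monocytes and interstitial macrophages. Classical monocyte-like cells held 5112 UMIs in control (663 CPM, 645 to 681) and 1114 in fibrosis (748 CPM, 705 to 794), a log2 ratio of 0.17 (0.08 to 0.27). Their share of all F13a1 UMIs was 83.1% in control and 59.9% in fibrosis. Interstitial macrophage-like cells held 232 UMIs (399 CPM, 349 to 454) and 337 UMIs (250 CPM, 224 to 278), a ratio of -0.67 (-0.92 to -0.43). Their share of all F13a1 UMIs was 3.77% of those in control, from 160 cells, and 18.1% of those in fibrosis, from 358 cells. Nonclassical monocyte-like cells were at 133 CPM (171 UMIs) and 89.1 CPM (71 UMIs), a ratio of -0.58 (-1.0 to -0.17). The level was thus slightly higher in classical monocyte-like cells and lower in the other 2 classes, by less than 2-fold. The small difference in classical monocyte-like cells turned to -0.11 without doublet removal and to -0.20 with classes called from the markers of the single cell alone. In interstitial macrophage-like cells the ratio was -1.02, past 2-fold, at a mitochondrial maximum of 5%. Relative to the gene's median ratio in all remaining classes it was -0.05 there and 0.09 in nonclassical monocyte-like cells.

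F13a1 stood higher relative to classical monocyte markers in interstitial macrophage-like cells than in the monocytes themselves. F13a1 UMIs per 100 classical monocyte marker UMIs were 44.4 and 29.5 in these macrophages and 6.37 and 8.17 in the classical monocyte-like cells, in control and fibrosis. In B-like cells F13a1 was at 9.56 and 6.49 CPM.

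F13a1 passed 2-fold lower in 3 further classes, all at low counts. In endothelial-like cells it was at 57.0 CPM in control (49 UMIs) and 14.7 in fibrosis (11 UMIs), a log2 ratio of -1.95. There 46 of the 49 control UMIs lay in the 22 cells with at least 3 classical monocyte markers, and without such cells the values were 4.16 CPM (3 UMIs) and 6.87 CPM (5 UMIs), a ratio of 0.72 (-1.64 to 3.41). In type 2 dendritic-like cells it was at 42.6 CPM (16 UMIs) and 6.26 CPM (5 UMIs), a ratio of -2.77. Of the 16 control UMIs, 15 lay in 27 cells with at least 3 classical markers, and without such cells the ratio was 0.49 (-3.15 to 6.20). The classical markers summed to 1761 CPM in control, with 0 of 8 at 0, and 1172 CPM in fibrosis, with 1 of 8 at 0. In both classes the direction turned without the cells that carried monocyte markers. In AT2-like cells F13a1 was at 4.62 CPM (28 UMIs in 28 cells) and 2.27 CPM (23 UMIs in 23 cells), a ratio of -1.02, at or below its level in B-like cells. The shares of all genes that passed 2-fold lower were 5.10% in endothelial-like, 3.33% in type 2 dendritic-like and 1.26% in AT2-like cells.

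**Figure D2:**
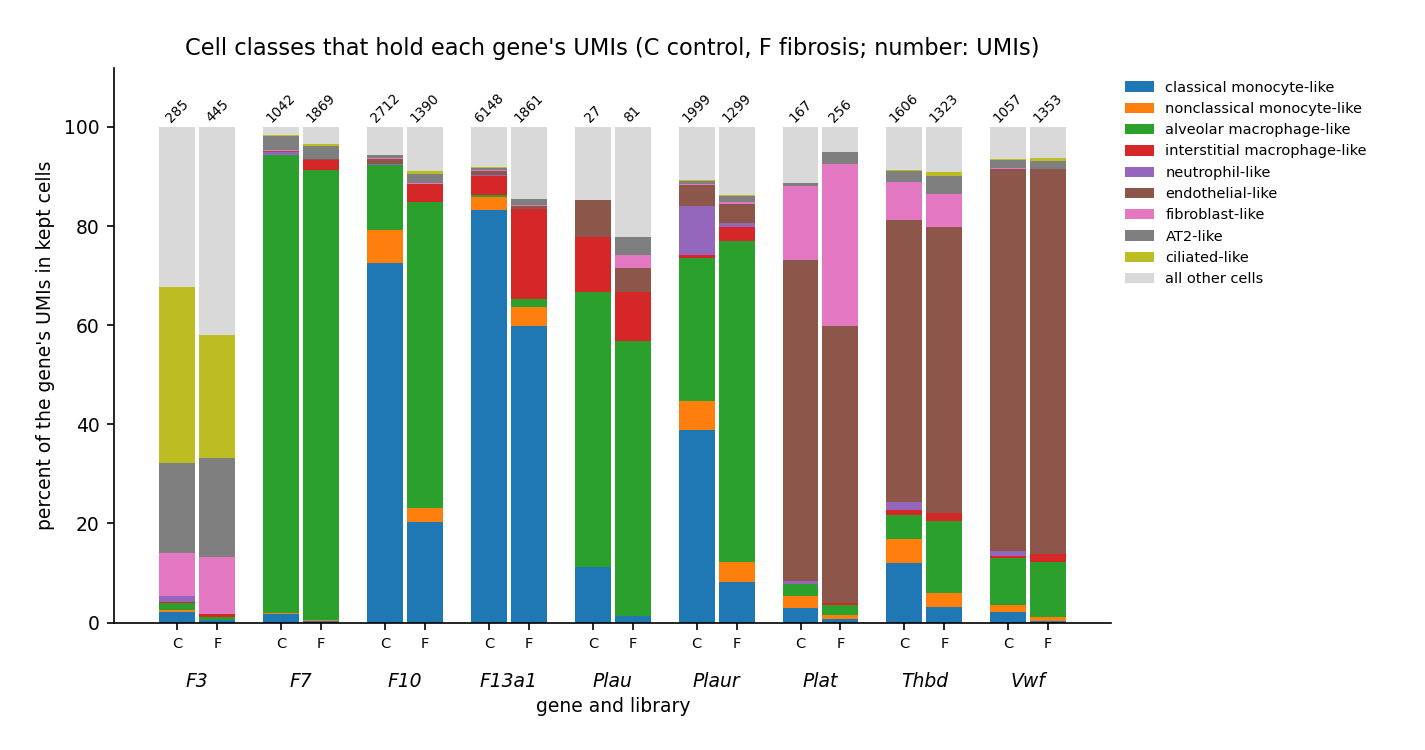
Stacked bars of the percent of each gene's UMIs that lay in each of 9 cell classes, with all other kept cells in pale grey, for the control (C) and fibrosis (F) library, and the number of UMIs above each bar. Classical monocyte-like cells held 72.6% of F10 and 83.1% of F13a1 UMIs in control and 20.2% and 59.9% in fibrosis, while F7 stayed with alveolar macrophage-like cells (92.3% and 91.0%).

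Thbd, the endothelial thrombin receptor, was highest in endothelial-like cells, at a CPM near equal between the libraries. These cells held 914 UMIs in control (1062 CPM, 995 to 1134) and 763 in fibrosis (1021 CPM, 950 to 1096), a log2 ratio of -0.06 (-0.20 to 0.08). At least 1 UMI was seen in 88.6% of 306 control and 85.6% of 194 fibrosis cells, and after thinning in 68.6% (63.1 to 73.8) and 58.2% (51.0 to 65.3). Vwf, the platelet tether, was also highest here, with 816 UMIs in control (949 CPM, 885 to 1016) and 1051 in fibrosis (1406 CPM, 1323 to 1494), a ratio of 0.57 (0.43 to 0.70). It was seen in 25.2% and 43.8% of the cells, and in 19.9% and 35.6% after thinning. Without the 22 control and 4 fibrosis cells with at least 3 classical monocyte markers the ratio was -0.18 (-0.32 to -0.03) for Thbd and 0.67 (0.53 to 0.81) for Vwf. Vwf thus stood higher in fibrosis beyond counting error in both counts, and Thbd differed little in either.

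Endothelial-like cells fell into 2 clusters, which were made without any of the 9 genes, and the members divided between them. The Cldn5-led cluster, which is high in Kdr, the main VEGF receptor, had 150 control and 60 fibrosis cells. The cluster with high Plvap and Lyve1 had 156 and 134 cells, or 51.0% and 69.1% of the endothelial-like cells. In the Cldn5-led cluster Vwf was at 6.05 CPM in control (2 UMIs) and had no UMI in fibrosis, and Thbd was at 1513 and 1707 CPM. In the Plvap and Lyve1 cluster Vwf was at 1536 CPM in control (814 UMIs, 1433 to 1646) and 1791 CPM in fibrosis (1051 UMIs, 1685 to 1903), and Thbd at 781 and 833 CPM. Thbd was detected in 130 of the 156 control and 111 of the 134 fibrosis cells of this cluster and Vwf in 75 and 85, with both genes in 63 and 71 cells. The difference in Vwf between the libraries was smaller within the cluster than over the class, and the share of cells in that cluster was higher in fibrosis. One control cell held 139 of the 816 Vwf UMIs, and without the highest cell of each library the class ratio was 0.72.

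**Figure D3:**
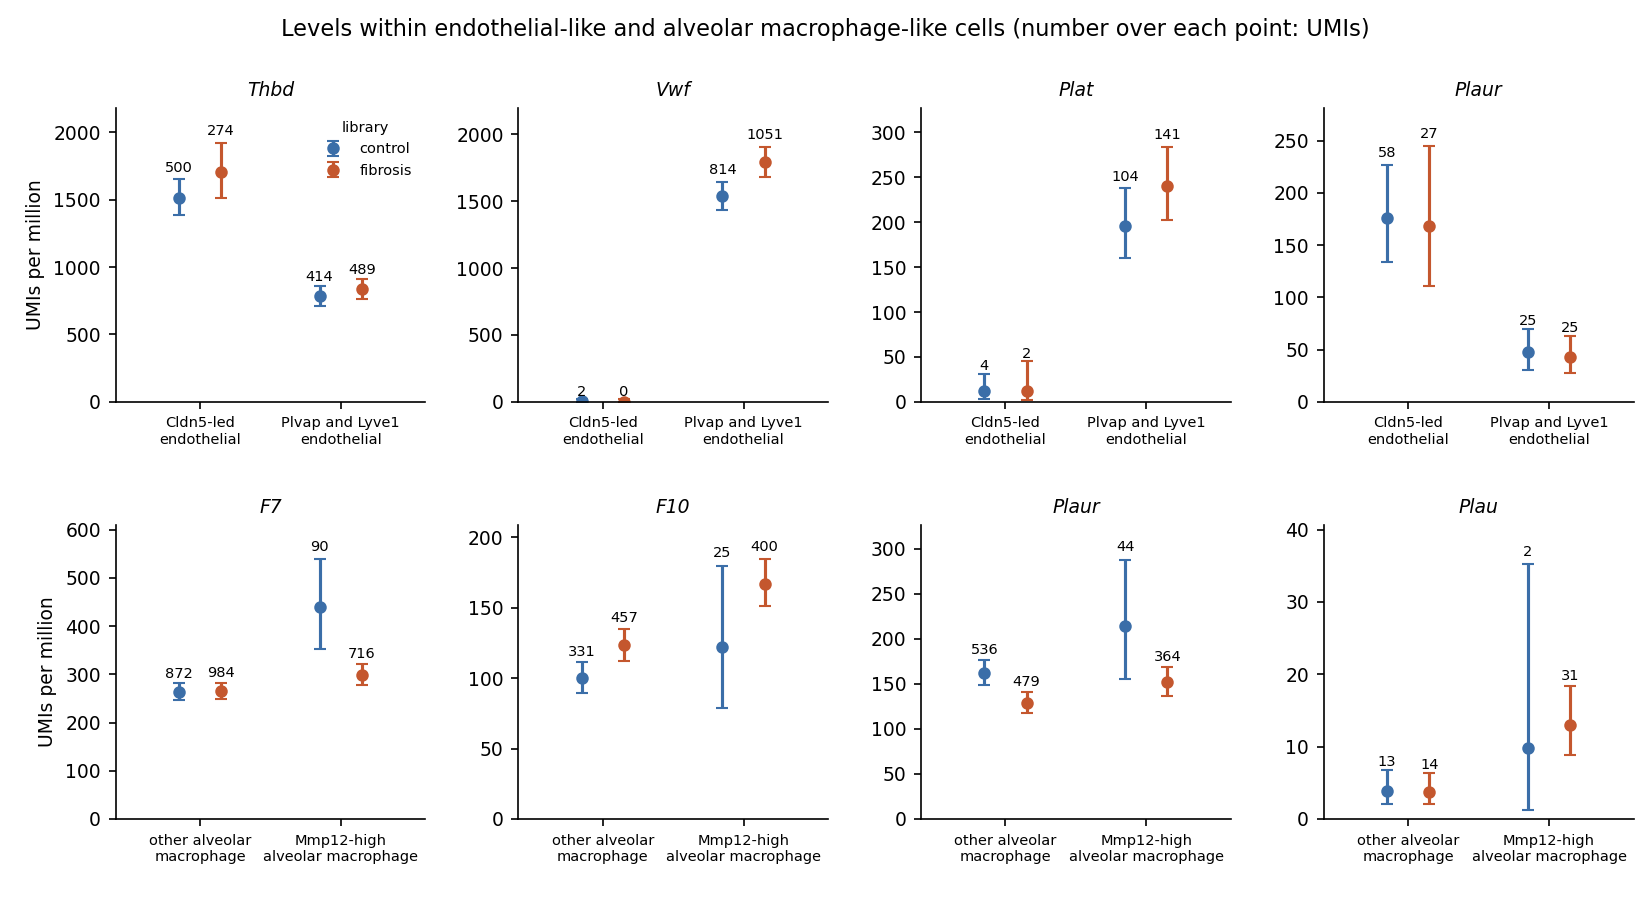
CPM with exact 95% intervals (counting error only) of 4 genes in each of 2 endothelial-like clusters (top row) and in the Mmp12-high and other alveolar macrophage-like cells (bottom row), blue for control, orange for fibrosis, with the UMIs over each point. Vwf and Plat were in the Plvap and Lyve1 cluster, Thbd and Plaur were higher in the Cldn5-led cluster, and 31 of the 45 Plau UMIs of fibrosis macrophages lay in the Mmp12-high subcluster.

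Outside endothelium, Thbd was highest in fibroblast-like cells, at 623 CPM in control (124 UMIs, 46 cells) and 309 CPM in fibrosis (88 UMIs, 53 cells), a log2 ratio of -1.01 (-1.42 to -0.61). AT2 marker transcripts in these cells summed to 10867 CPM in control, with 0 of 10 at 0, and 1462 CPM in fibrosis, with 1 of 10 at 0. Without the 8 control and 18 fibrosis cells that held at least 3 AT2 markers Thbd was at 639 and 358 CPM, a ratio of -0.83 (-1.33 to -0.35). Thbd UMIs per 100 endothelial marker UMIs were 238 and 183 in fibroblast-like cells and 5.98 and 7.27 in endothelial-like cells. Nonclassical monocyte-like cells were at 61.5 CPM (79 UMIs) and 45.2 CPM (36 UMIs).

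Thbd passed 2-fold lower in 2 lymphoid classes at low counts. It was at 14.3 CPM (27 UMIs) in control and 4.33 CPM (4 UMIs) in fibrosis in B-like cells, a ratio of -1.73 (-3.70 to -0.21), and at 10.6 CPM (19 UMIs) and 4.78 CPM (9 UMIs) in T-like cells, a ratio of -1.15 (-2.48 to 0.06). In T-like cells of the control library 1 cell held 10 of the 19 UMIs. Without the 3 control and 4 fibrosis T-like cells with at least 3 endothelial markers the ratio was -0.66, and without the 12 and 2 such B-like cells it was -1.24 (-3.25 to 0.35). The shares of all genes past 2-fold lower were 3.25% in B-like and 1.36% in T-like cells. Neutrophil-like cells held 25 Thbd UMIs in control and 1 in fibrosis, where only 47 such cells were present, with a log2 interval from -6.41 to 1.56.

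Vwf was also found at a low level in alveolar macrophage-like cells, at 28.7 CPM in control (101 UMIs in 85 cells) and 24.7 CPM in fibrosis (151 UMIs in 132 cells), beside 4.25 and 5.41 CPM in B-like cells. The 9 control and 13 fibrosis macrophages that held at least 3 endothelial markers had 2 of these UMIs in each library. All 11 endothelial markers were above 0 in the macrophages, with summed levels of 99.2 and 75.0 CPM against 17782 and 14048 CPM in endothelial-like cells. Vwf UMIs per 100 endothelial marker UMIs were 28.9 and 33.0 in the macrophages and 5.33 and 10.0 in endothelial-like cells. Of 9 platelet and megakaryocyte markers, 5 in control and 4 in fibrosis were at 0 in the macrophages, with summed levels of 70.5 and 84.4 CPM. Type 1 dendritic-like cells were at 10.8 CPM (6 UMIs) and 21.5 CPM (33 UMIs), a log2 ratio of 0.99 (-0.28 to 2.54). Interstitial macrophage-like cells were at 6.88 CPM (4 UMIs) and 15.6 CPM (21 UMIs), a ratio of 1.18 (-0.39 to 3.18) that passed 2-fold with an interval including no change.

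Plaur, the urokinase receptor, was spread over myeloid and endothelial-like cells. Alveolar macrophage-like cells held 580 UMIs in control (165 CPM, 152 to 179) and 843 in fibrosis (138 CPM, 129 to 148), a log2 ratio of -0.26 (-0.41 to -0.10). Neutrophil-like cells held 197 UMIs (153 CPM, 644 cells) and 9 UMIs (84.3 CPM, 47 cells), and the interval of the ratio ran from -2.01 to 0.09. Classical monocyte-like cells held 778 UMIs (101 CPM, 93.9 to 108) and 107 UMIs (71.9 CPM, 58.9 to 86.9), a ratio of -0.49 (-0.79 to -0.20). Plaur CPM was lower in fibrosis in these 3 classes, the first and last beyond counting error, and none passed 2-fold. After thinning, 13.2% of control and 13.5% of fibrosis alveolar macrophage-like cells had a Plaur UMI, so this share was not lower. In classical monocyte-like cells the shares were 8.90% (7.51 to 10.4) and 6.42% (4.12 to 9.48), and in neutrophil-like cells 15.5% and 4.26%. In alveolar macrophage-like cells the ratio turned to 0.22 relative to the gene's median ratio elsewhere. Nonclassical monocyte-like cells were at 88.8 and 64.0 CPM and endothelial-like cells at 96.5 and 69.6 CPM, with intervals of the ratio that included no change.

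In endothelium Plaur lay with Thbd, at 176 CPM in control and 168 in fibrosis in the Cldn5-led cluster and 47.2 and 42.6 CPM in the Plvap and Lyve1 cluster. Within each cluster the libraries were closer than over the class. B-like cells were at 19.7 CPM (37 UMIs) and 10.8 CPM (10 UMIs). Plasmacytoid dendritic-like cells held 17 UMIs (79.2 CPM, 58 cells) and 4 UMIs (26.9 CPM, 45 cells), a ratio of -1.56 with an interval from -3.59 to 0.06. Alveolar macrophage-like cells held 29.0% of Plaur UMIs in control and 64.9% in fibrosis, and classical monocyte-like cells 38.9% and 8.24%.

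Plau, the plasminogen activator that binds this receptor, was rare, with 27 UMIs in control and 81 in fibrosis over all kept cells. Alveolar macrophage-like cells held 15 UMIs in 15 cells in control (4.26 CPM, 2.39 to 7.03) and 45 UMIs in 35 cells in fibrosis (7.37 CPM, 5.38 to 9.86), a log2 ratio of 0.79 (-0.08 to 1.74). Without doublet removal the ratio was -0.02. A subcluster high in Mmp12, a macrophage elastase, chosen after its values were seen, held 32 control and 338 fibrosis cells. It held 31 of the 45 Plau UMIs in fibrosis (12.9 CPM, 8.80 to 18.4), and the other 701 fibrosis macrophages held 14 (3.77 CPM, 2.06 to 6.33). In control the subcluster held 2 UMIs (9.75 CPM, 1.18 to 35.2) and the other 659 macrophages 13 (3.92 CPM, 2.09 to 6.71). Within each subset the libraries overlapped in their intervals, and within the fibrosis library the subsets did not. The subclusters largely follow the libraries. Interstitial macrophage-like cells held 3 and 8 Plau UMIs, type 2 dendritic-like cells 2 and 3, and B-like cells none, which allows up to 1.59 and 3.25 CPM.

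F7 and F10 also had higher CPM in the Mmp12-high than in the other macrophages of each library, with intervals that overlapped for F7 in fibrosis and for F10 in control. F7 was at 299 CPM in the Mmp12-high and 265 CPM in the other macrophages of the fibrosis library, and at 439 CPM (90 UMIs) and 263 CPM in control. F10 was at 167 and 123 CPM in fibrosis and at 122 CPM (25 UMIs) and 99.9 CPM in control. In the other macrophages alone the intervals of F10 lay just apart between the libraries (89.5 to 111 CPM in control and 112 to 135 in fibrosis), and F7 was nearly equal.

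Plat, the tissue plasminogen activator, was highest in fibroblast-like and endothelial-like cells. Endothelial-like cells held 108 UMIs in 30 cells in control (126 CPM, 103 to 152) and 143 UMIs in 38 cells in fibrosis (191 CPM, 161 to 225), a log2 ratio of 0.61 (0.24 to 0.98). With classes called from the markers of the single cell alone the ratio was 0.18. Plat lay with Vwf in the Plvap and Lyve1 cluster, at 196 CPM (160.4 to 238) and 240.3 CPM (202 to 283), against 12.1 and 12.5 CPM in the Cldn5-led cluster. Fibroblast-like cells held 25 UMIs (126 CPM) and 84 UMIs (295 CPM), a ratio of 1.23 (0.57 to 1.94). In fibrosis 46 of the 84 UMIs were in 1 cell, and without the highest cell of each library the ratio was 0.34 (-0.47 to 1.18). Mesothelial-like cells held 13 UMIs (52.0 CPM) and 6 UMIs (23.8 CPM), and B-like cells 3 and 0.

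Of 108 possible pairs of gene and compared class, 45 had at least 20 UMIs over both libraries. Of these, 3 pairs (6.67%) were at least 2-fold higher in fibrosis and 7 (15.6%) at least 2-fold lower. Among all genes in the same classes, 4.57% of 96299 pairs were at least 2-fold higher and 2.80% at least 2-fold lower. The 3 higher pairs were F7, F10 and Vwf in interstitial macrophage-like cells. The 7 lower pairs were F10 in nonclassical monocyte-like and endothelial-like cells, F13a1 in type 2 dendritic-like, endothelial-like and AT2-like cells, and Thbd in T-like and B-like cells. The median log2 ratio was -0.22 over the 45 pairs and 0.02 over all pairs, and 27 of the 45 intervals included no change. In the class where a gene was most abundant among those compared, no member passed 2-fold. Among the compared classes, only F10 in nonclassical monocyte-like cells joined over 100 UMIs with a difference past 2-fold.

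**Figure D4:**
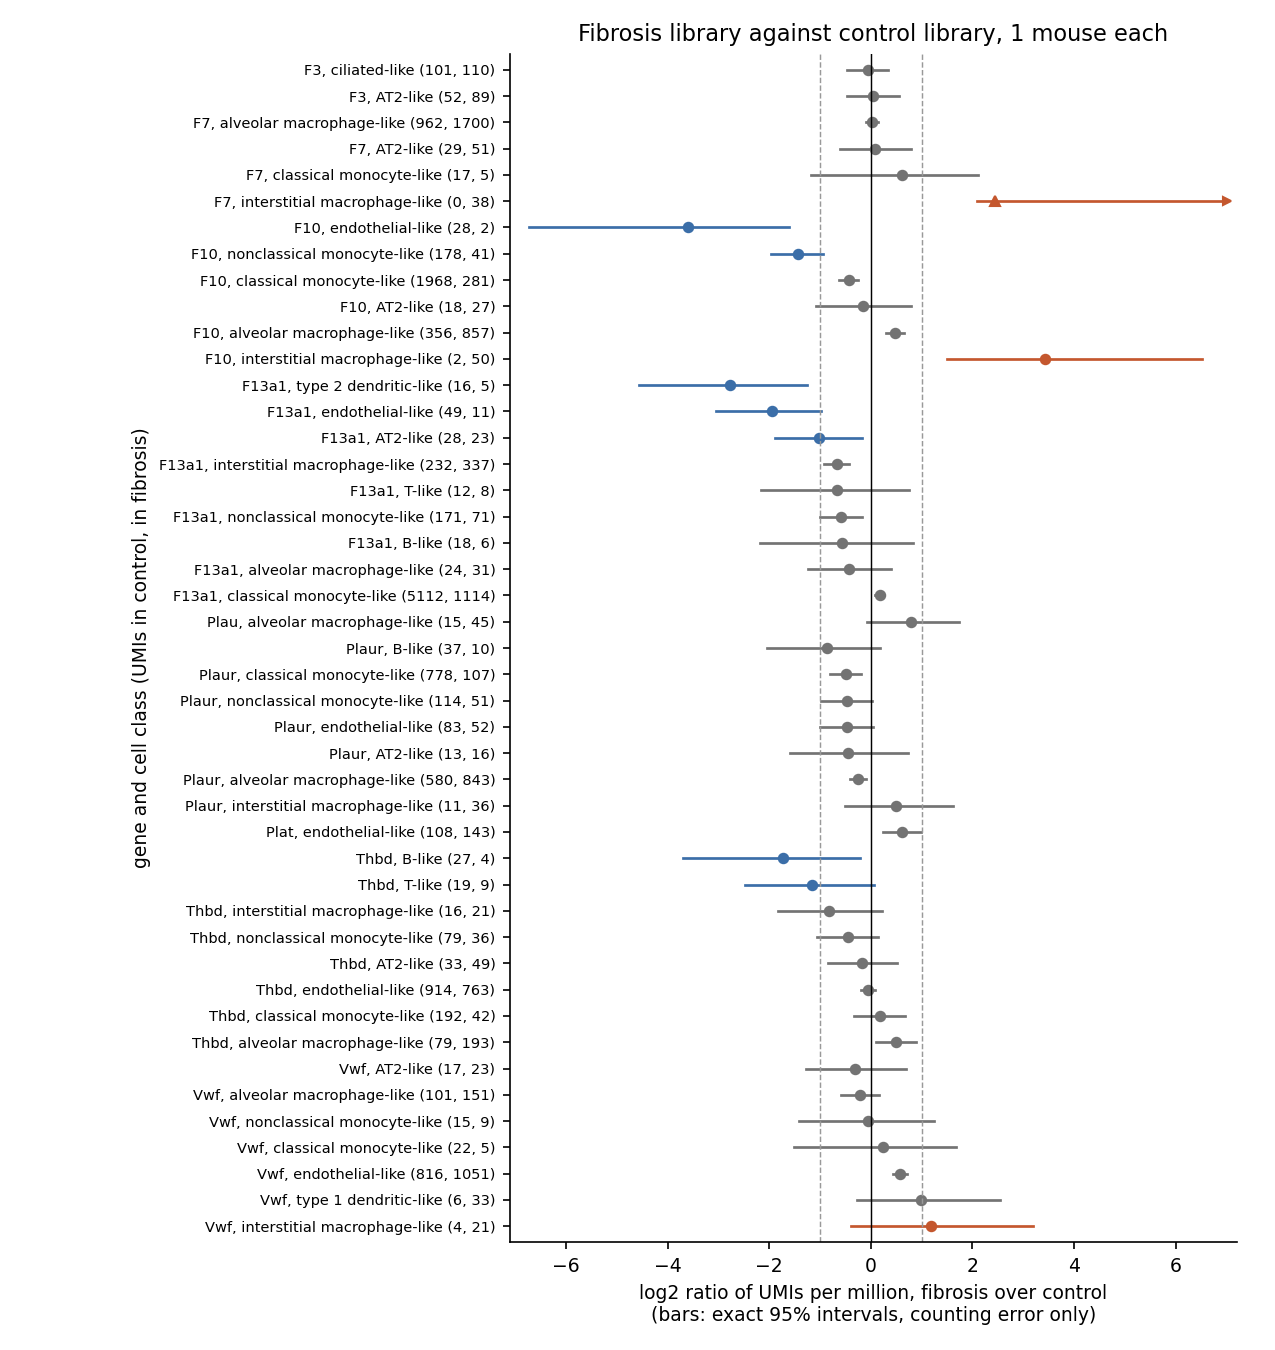
Log2 ratio of CPM, fibrosis over control, for the 45 pairs of gene and class with at least 20 UMIs, with exact 95% intervals (counting error only), dashed lines at 2-fold, and the UMIs of each library in parentheses. Orange marks the 3 pairs at least 2-fold higher, blue the 7 at least 2-fold lower, and the triangle a value with a control sum of 0 set to 3 counts, whose interval has no upper bound.

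The genes most like each member were those with the highest Pearson correlation of log2(CPM + 1) over 24 points, 12 classes in 2 libraries, among 12276 genes with at least 100 UMIs. The points share libraries and classes, so the values are descriptions. F7 was closest to Kcnn3 (0.91), Vstm2a (0.90) and Lipf (0.90), and F10 to Sirpb1c (0.93), Msrb1 (0.93) and Clec4e (0.90). F13a1 was closest to Clec4a1 (0.92), Lst1 (0.87) and Tmcc1 (0.87). Plat was closest to Sulf1 (0.97), Pde3a (0.96) and Ccm2l (0.95), Thbd to Ace (0.90), Plat (0.90) and Tmem204 (0.89), and Vwf to Clec1a (0.93), Mesdc2 (0.93) and Calcrl (0.93). F3 was closest to Hmgcll1 (0.95), Dsg2 (0.94) and Mycbpap (0.94), Plaur to Atp13a2 (0.88), Klf13 (0.88) and Mpp1 (0.88), and Plau, with 91 UMIs, to Creb5 (0.88), Dab2 (0.87) and Ctdnep1 (0.85). Sirpb1c, Ace and Calcrl are themselves class markers used here.

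Of 43 other genes of the pathway, 25 had at least 20 UMIs in a compared class, giving 116 pairs. At least 2-fold higher in fibrosis were 14 pairs (12.1%), and 3 (2.59%) were at least 2-fold lower, with a median log2 ratio of -0.04. The shares over all genes stand above. The list set up as inhibitors of fibrinolysis had the most higher pairs, 7 of 20, of which 3 were of Serpinb6b and 2 of Thbs1. The list of procoagulant factors and fibrinogen had a larger share, 2 of 5. Thbs1, which encodes thrombospondin, was at 3.49 CPM (3 UMIs) and 56.2 CPM (42 UMIs) in endothelial-like cells and at 9.55 and 24.3 CPM in ciliated-like cells. Serpine2, a thrombin inhibitor, was at 11.6 and 25.4 CPM in endothelial-like cells. Serpinb6b, an intracellular serpin, was at 59.3 and 165.9 CPM in endothelial-like cells, and it also passed 2-fold in alveolar macrophage-like cells (1.71 and 6.55 CPM) and B-like cells (5.31 and 14.1 CPM).

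The liver-type factors were low, and the 2 fibrinogen chains past 2-fold were in AT2-like cells. Fgg, the gamma chain, was at 3.96 CPM in control (24 UMIs) and 14.9 in fibrosis (151 UMIs), and Fga, the alpha chain, at 0.826 (5 UMIs) and 2.37 CPM (24 UMIs), while Fgb had no UMI in either library. Serpina10, the inhibitor of factor Xa that acts with protein Z, was at 0.826 and 3.16 CPM in the same cells, and Klkb1, prekallikrein, at 2.31 and 0.988 CPM. Among anticoagulants Procr, the endothelial protein C receptor that acts beside thrombomodulin, was at 12.8 and 29.4 CPM in endothelial-like and 3.13 and 9.34 CPM in alveolar macrophage-like cells. Pros1, protein S, was at 19.8 and 7.83 CPM in type 1 dendritic-like cells, and Plgrkt, a plasminogen receptor, at 3.60 (2 UMIs) and 14.3 CPM (22 UMIs). In the vitamin K cycle, on which factors VII and X depend, Ggcx was at 2.98 and 6.05 CPM in classical monocyte-like cells and Vkorc1 at 59.3 and 25.4 CPM in endothelial-like cells. Some pathway pairs rest on few UMIs over both libraries, such as 24 for Klkb1 and 37 for Serpina10 in AT2-like cells. Procr in endothelial-like cells had 33. For pathway pairs no interval is given, so passing 2-fold describes size only and may lie within counting error. The genes with most UMIs of their role that did not pass 2-fold were F5 (207 and 49 UMIs), S100a10 (20825 and 17471), F2r (273 and 343) and Mmrn2 (138 and 209) over kept cells of the control and fibrosis library. These sums move with the makeup of the cells and are not levels within a class. None of the 9 pairs of the list of thrombin and protease receptors passed 2-fold.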

How the data were processed

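The deposited values are raw UMI counts per gene and cell in 2 matrices, 1 per mouse. The authors used bcl2fastq and Cell Ranger 1.3 with mm10, per the submitters' processing notes. The annotation is not given in the sources used here.

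Cells with under 200 genes or over 10% mitochondrial counts were left out, as was the top share of cells by doublet score (scrublet in scanpy 1.11.5, 0.8% expected per 1000 cells), 515 control and 386 fibrosis cells. Scrublet's own threshold marked 13 and 168 cells, so the same rule by expected share was used in both libraries. Each cell was scored on 27 marker lists and needed at least 3 distinct markers of its class. The call was checked against Leiden clusters (2000 variable genes, 30 components, 15 neighbours, resolution 1, python-igraph 0.11.9) made without the members and pathway genes. A cell in a named cluster took the cluster's class where this was among its 2 highest scores, without a margin. A score 1.25 times the next was required only in unnamed clusters. Of 32 clusters, 4 were mixed and left out and 2 unnamed. This scoring rule was set after class counts had been seen. Cells whose call went against their cluster numbered 326 in control and 482 in fibrosis and were left out. The AT2-like class includes a cluster of 10 control and 376 fibrosis cells.

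Counts were summed per class and library and given as CPM with exact Poisson 95% intervals, and ratios with exact binomial intervals (scipy 1.17.1). A pair was called past 2-fold with at least 20 UMIs over both libraries, a sum of 0 being set to 3 counts. Ratios and intervals were tested on simulated data. Named values cover, for each member, the 3 classes with the highest pooled CPM, B-like cells and classes past 2-fold, the 3 genes most like it, and pathway genes past 2-fold or with most UMIs of their role, of which 1 is not reported here. The members and lists were chosen with earlier results of these data known. Promoter windows were found for 5 of the 9 members.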

Additional observations from a re-analysis of the deposited data

How the results depend on the processing

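The 3 higher and 7 lower pairs were recounted under each alternative. Without doublet removal 6 pairs were higher, and with markers of the single cell alone, chosen after seeing the data, 7 were. With a minimum of 50 UMIs 1 pair was higher and 3 were lower. Under the other alternatives (1 more or 1 fewer marker, clusters alone, 5% mitochondrial maximum, an equal UMI floor, centred ratios, other classes subtracted, 10 UMIs) the counts were 3 or 4 higher and 5 to 8 lower. Among pairs past 2-fold, the log2 ratio turned for Thbd in T-like cells without doublet removal (0.054), and for F13a1 in type 2 dendritic-like cells with markers of the single cell alone (1.95). It also turned without cells holding at least 3 classical monocyte markers, to 0.72 for F13a1 in endothelial-like and 0.49 in type 2 dendritic-like cells, alternatives chosen after seeing the data. The cause was not tested, apart from those cells themselves. Of the 45 ratios, 21 changed sign under at least 1 alternative, 5 of them among the 18 whose interval included no 0. The others of these 5 were F13a1 in classical monocyte-like cells (-0.11 without doublet removal, -0.20 with single-cell markers) and nonclassical monocyte-like cells (0.09), and Plaur in alveolar macrophage-like cells (0.22), the last 2 with the other classes subtracted. F7, F10 and Vwf in interstitial macrophage-like cells and F10 in nonclassical monocyte-like cells were past 2-fold under all 9 alternatives that recount cells or rescale. So was F13a1 in endothelial-like cells, although it turned without the cells holding monocyte markers. F10 in endothelial-like cells was past 2-fold under all 8 alternatives counted for it. Subtracting the other classes moved F13a1 in AT2-like cells to -0.40. Of 418 recomputed ratios 386 stayed within their counting interval and 28 moved beyond it. The other 4, counted apart, were the changes of sign in pairs past 2-fold given above.

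No paired analysis was possible because each group is 1 mouse and the groups share only replicate number 1. Leaving out a replicate would empty a group. Differences between mice, handling and treatment cannot be told apart here. Rare transcripts are limited by depth, as with Plau at 27 and 81 UMIs, and classes under 50 cells in a library were described only.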
